A study of Mus musculus with 5 samples.

Results

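The genes that write, keep and remove 5-methylcytosine were described across mouse fibroblasts, pluripotent cells and a knockdown of the glycine decarboxylase gene Gldc. Their 10 members were chosen by symbol and were the methyltransferase genes Dnmt1, Dnmt3a, Dnmt3b and Dnmt3l, the maintenance factor Uhrf1, the dioxygenase genes Tet1, Tet2 and Tet3, the glycosylase gene Tdg and the imprint guardian Zfp57. All 10 were found among the 24421 genes of the deposited expression tables by a rule that reads symbols only.

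RNA-seq was performed on 5 libraries with 1 library per group, so no difference below has a replicate check and no p-value is given. MEFs were mouse embryonic fibroblasts in medium with 10% FBS, and the methods state that they came from CF-1 embryos. The iPSCs were an induced pluripotent line and V6.5, untreated, a line of embryonic stem cells. Both are listed with 15% serum replacement, 1% FBS and 1000 U/ml LIF, the medium of the methods for cells without feeders, which MEFs did not share. The 2 remaining libraries were V6.5 cells listed with that same medium that carried either non-targeting control shRNA (NTC) or Gldc shRNA (shGldc). The methods also describe culture on feeders, with 15% FBS in place of serum replacement, and do not say which culture was sequenced. The transfection label does not say whether the shRNA was stable. The paper describes V6.5 cells with stable expression of shGldc, but does not say so for the sequenced cells. The column of the knockdown library is headed sh3, whose hairpin sequence is not given in the sources used here. Cell type and culture medium cannot be told apart in the comparisons with MEFs.

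DNA methylation is laid down on unmethylated CpG dinucleotides by DNMT3A and DNMT3B, with DNMT3L as a cofactor that lacks catalytic activity. It is copied to the new strand after replication by DNMT1, which UHRF1 brings to hemimethylated sites, and ZFP57 keeps it at imprinted regions. TET enzymes oxidise 5-methylcytosine, and TDG excises the later oxidation products so that repair restores cytosine. Mouse embryonic stem cells are known for high levels of both arms at once.

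Expression was given as FPKM (fragments per kilobase of transcript, scaled to the mapped total), a scale per length on which genes can be compared. NTC and shGldc were in a separate table from the other 3 libraries, made on its own. FPKM sums were between 466650 and 576470, and estimated depths were between 22100000 and 29100000 fragments, with the second table uncertain by a factor of 2. Gldc was 74.7 FPKM in NTC and 2.07 FPKM in shGldc, which left 2.77%. All 8 pluripotency markers reached 1 FPKM in the 4 pluripotent libraries, and all 10 fibroblast markers did so in MEFs. Of 10 macrophage markers, 9 reached 1 FPKM in MEFs with a sum of 210.6 FPKM, and none of these markers was at 0 there. Their part in any MEF value was not tested. Fold changes are ratios of FPKM, and log2 ratios are of FPKM + 0.1, which understates the change of low genes. A gene was kept in a comparison if it reached 1 FPKM in either library. The only measure of spread came from NTC and the untreated V6.5 library, 2 libraries of the same line in separately made tables. The robust SD of their log2 ratio was 0.59 over 12048 genes, and it is used below as a yardstick, not as replicate error. Intervals of folds are 95% intervals for counting error only, from fragment numbers estimated from the low FPKM values. Those numbers take the longest coding transcript of each gene, which for Tet1 is 14369 bases against a mean of 3990.5. Where shorter transcripts prevail the intervals are too narrow.

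The start regions of the 4 genes with the largest excess over MEFs in both pluripotent libraries are shown because they differ widely in the CpG content on which these enzymes act. Each line gives the 250 bases before a RefSeq start on the strand of the gene, with each CG in capitals, and for genes with several starts the window with the most CG is printed. The windows lie at chr10:78042037-78042286 (plus strand) for Dnmt3l, chr2:153649199-153649448 (plus strand) for Dnmt3b, chr10:62887325-62887574 (minus strand) for Tet1 and chr17:37002275-37002524 (plus strand) for Zfp57, in GRCm38.p6.
Dnmt3l: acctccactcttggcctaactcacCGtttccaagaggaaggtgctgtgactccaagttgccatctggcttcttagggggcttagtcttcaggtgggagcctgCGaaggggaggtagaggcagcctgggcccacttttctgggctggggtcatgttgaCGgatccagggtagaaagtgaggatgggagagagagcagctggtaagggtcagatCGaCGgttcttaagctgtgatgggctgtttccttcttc
Dnmt3b: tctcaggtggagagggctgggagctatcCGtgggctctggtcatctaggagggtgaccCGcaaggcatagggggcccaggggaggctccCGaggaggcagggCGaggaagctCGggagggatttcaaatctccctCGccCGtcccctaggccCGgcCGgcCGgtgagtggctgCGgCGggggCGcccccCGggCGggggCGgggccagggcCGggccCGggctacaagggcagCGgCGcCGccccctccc
Tet1: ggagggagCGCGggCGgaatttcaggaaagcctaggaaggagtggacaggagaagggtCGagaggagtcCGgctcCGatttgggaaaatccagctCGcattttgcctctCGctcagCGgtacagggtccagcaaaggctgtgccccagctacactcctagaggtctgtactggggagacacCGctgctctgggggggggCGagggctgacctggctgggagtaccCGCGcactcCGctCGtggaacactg
Zfp57: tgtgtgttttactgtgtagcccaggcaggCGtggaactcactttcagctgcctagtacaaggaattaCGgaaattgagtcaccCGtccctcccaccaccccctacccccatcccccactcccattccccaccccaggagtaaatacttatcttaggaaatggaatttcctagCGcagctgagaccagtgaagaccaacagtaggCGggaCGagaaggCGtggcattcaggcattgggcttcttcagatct

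The windows of Dnmt3l and Zfp57 held 5 and 7 CG, and those of Tet1 and Dnmt3b held 15 and 21. CG reads the same on both strands, and at least 1 was found in 92.1% of the 32851 RefSeq windows of this length, with a median of 6 and quartiles of 2 and 16. The other RefSeq windows held 3 and 4 CG for Dnmt3l and 3 and 6 CG for Zfp57, so every window of Dnmt3l was below the median. Tet2 stood at the other end with 51 CG. The remaining members had at least 1 window above the upper quartile, with 17 for Tet3, 19 for Tdg, 26 for Dnmt1, 30 for Uhrf1 and 40 for Dnmt3a. Methylation itself was not measured in these libraries, and the tables do not separate the transcripts that begin at different starts.

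**Figure D1:**
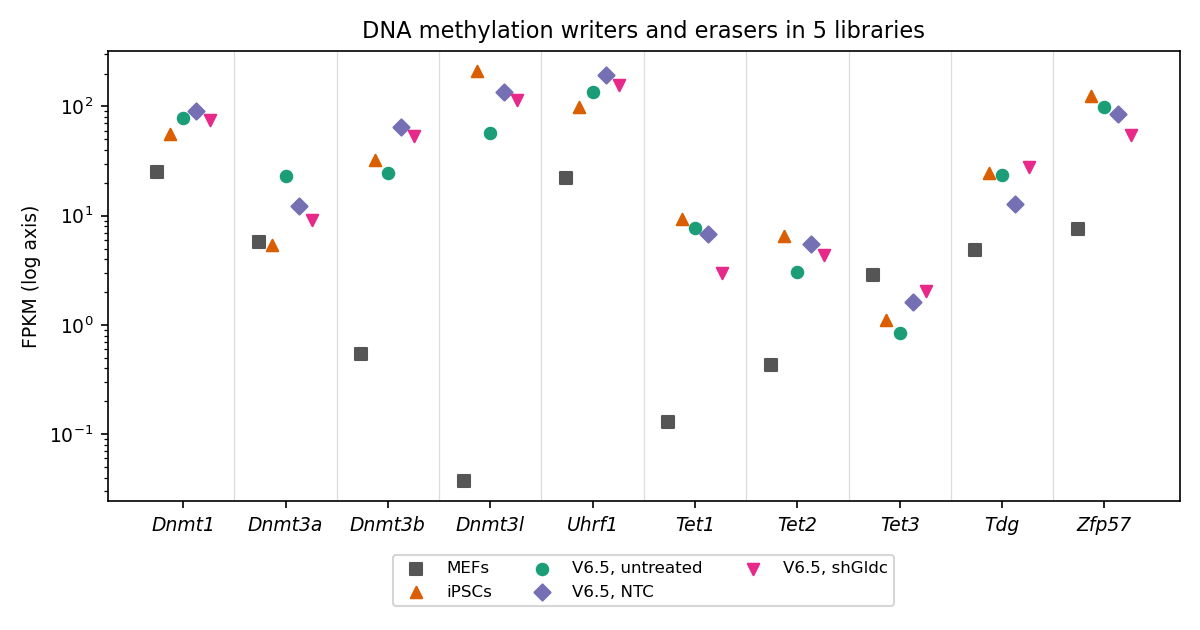
FPKM of the 10 genes (log axis) in MEFs, iPSCs, untreated V6.5 cells, NTC and shGldc, 1 point per library. Dnmt3l, Tet1, Tet2 and Dnmt3b lie below 1 FPKM in MEFs, Tet3 is the only gene highest in MEFs, and the last 2 libraries come from a separately made table.

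The first question was how the methylation machinery differs between somatic and pluripotent cells. Among the 10 members, 9 were at least 2-fold higher in untreated V6.5 cells than in MEFs, against 30.3% of the 12840 kept genes, and 1 was at least 2-fold lower, against 23.3%. In iPSCs 8 were at least 2-fold higher than in MEFs, against 31.5% of 13032 kept genes, and 1 was at least 2-fold lower, against 21.3%. Both comparisons share the single MEF library. In each, 4 of the higher members (Dnmt3b, Dnmt3l, Tet1 and Tet2) were under 1 FPKM in MEFs and passed the filter only through the library where they were high, and Tet3 passed only through MEFs in the first. The median log2 ratio of the members was 2.58 in V6.5 cells and 2.97 in iPSCs, beside 0.25 and 0.31 over all kept genes. Rescaling the libraries to the same FPKM sum moved the medians of all kept genes to 0.01 and 0.02, and the split of all calls in iPSCs to 25.1% higher and 25.9% lower. No member changed direction in these comparisons under that or any other scaling. The members are therefore described relative to an overall shift of up to 0.31.

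Among the de novo writers, Dnmt3l was 0.0375 FPKM in MEFs, 210.1 FPKM in iPSCs and 57.1 FPKM in V6.5 cells. The MEF value is worth 1.68 fragments, below the floor of 3 fragments (0.0668 FPKM). The ratio was 5596-fold in iPSCs (1305 to 38938) and 1520-fold in V6.5 cells (354.1 to 10579). By log2 ratio it was the gene with rank 3 of all kept genes in iPSCs over MEFs and rank 32 in V6.5 cells over MEFs. With a MEF value under the floor, the log2 ratio behind these ranks depended on the pseudocount, from 7.67 to 12.11 in iPSCs and from 5.81 to 10.23 in V6.5 cells. In the annotation 2.24% of its exon bases overlap the opposite-strand gene Aire, which was 0 in MEFs, 6.43 FPKM in iPSCs and 2.68 FPKM in V6.5 cells, and the strand setting of the counting is not stated.

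Dnmt3b, one of the catalytic de novo enzymes, was 0.545 FPKM in MEFs, 32.4 FPKM in iPSCs and 24.5 FPKM in V6.5 cells. It was 59.5-fold (45.8 to 78.4) and 44.9-fold (34.6 to 59.3) higher than in MEFs. Of its 50-nt stretches, 9.81% also occur in Dnmt3c, a rodent paralogue that was not analysed here. Dnmt3a, the other catalytic enzyme, had a different pattern, with 5.70 FPKM in MEFs, 5.40 FPKM in iPSCs and 23.2 FPKM in V6.5 cells. It was 4.07-fold (3.83 to 4.32) higher in V6.5 cells than in MEFs. In iPSCs its log2 ratio over MEFs was -0.08, within the yardstick. Consequently Dnmt3a made up 91.3% of the summed FPKM of the 2 catalytic genes in MEFs, 48.6% in V6.5 cells and 14.3% in iPSCs.

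Both genes of the maintenance pair were expressed in every library. Dnmt1 was 25.3 FPKM in MEFs, 56.0 FPKM in iPSCs and 78.3 FPKM in V6.5 cells. Its excess over MEFs was 2.22-fold (2.13 to 2.31) in iPSCs and 3.10-fold (2.99 to 3.22) in V6.5 cells, and the log2 ratio in iPSCs fell to 0.83, under 2-fold, when centred on the median of all genes. Uhrf1 was 22.1 FPKM in MEFs, 98.1 FPKM in iPSCs and 134.5 FPKM in V6.5 cells, an excess of 4.44-fold (4.23 to 4.67) and 6.09-fold (5.80 to 6.39). The ratio of Uhrf1 to Dnmt1 was 0.875 in MEFs, 1.75 in iPSCs and 1.72 in V6.5 cells. A list of 14 genes of S phase and division moved in the same order, with summed FPKM of 509.3 in MEFs, 1635.4 in iPSCs and 2324.7 in V6.5 cells, and its part in the levels of Dnmt1 and Uhrf1 was not tested. Of the 50-nt stretches of Uhrf1, 14.7% occur in the annotated copy Gm5648. Zfp57, the zinc finger protein that guards imprints, was 7.51 FPKM in MEFs, 125.0 FPKM in iPSCs and 99.4 FPKM in V6.5 cells, which is 16.6-fold (15.2 to 18.3) and 13.2-fold (12.1 to 14.6) higher than in MEFs.

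The 3 dioxygenase genes exchanged places. Tet1 was 0.130 FPKM in MEFs, 9.41 FPKM in iPSCs and 7.71 FPKM in V6.5 cells, 72.4-fold (54.1 to 99.1) and 59.3-fold (44.3 to 81.2) higher than in MEFs. Tet2 was 0.433 FPKM in MEFs, 6.56 FPKM in iPSCs and 3.05 FPKM in V6.5 cells, 15.2-fold (12.3 to 18.8) and 7.04-fold (5.68 to 8.78) higher. Tet3, which is best known from the oocyte and zygote, was the only member lower in both, with 2.88 FPKM in MEFs, 1.12 FPKM in iPSCs and 0.844 FPKM in V6.5 cells. It was 2.57-fold (2.23 to 2.96) lower in iPSCs and 3.41-fold (2.93 to 3.96) lower in V6.5 cells than in MEFs, and with a pseudocount of 1 the iPSC ratio no longer reached 2-fold. Tet3 thus held 83.6% of the summed Tet FPKM in MEFs but 6.55% in iPSCs and 7.28% in V6.5 cells, where Tet1 held 55.1% and 66.4%. The summed Tet FPKM was 3.44 in MEFs, 17.1 in iPSCs and 11.6 in V6.5 cells. Tdg, which acts after the TET enzymes, was 4.88 FPKM in MEFs, 24.4 FPKM in iPSCs and 23.7 FPKM in V6.5 cells, 4.99-fold (4.49 to 5.56) and 4.85-fold (4.36 to 5.39) higher than in MEFs.

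**Figure D2:**
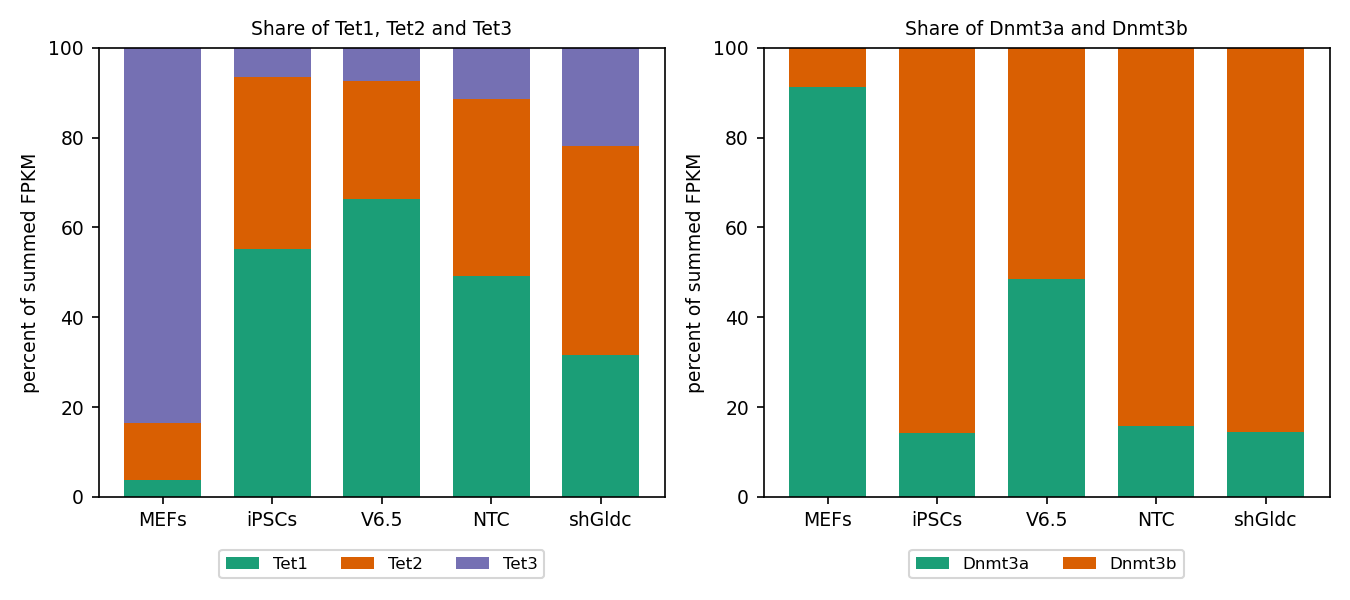
Percent of summed FPKM held by Tet1, Tet2 and Tet3 (left) and by Dnmt3a and Dnmt3b (right) in each of 5 libraries, 1 bar per library. Tet3 holds 83.6% of the Tet sum in MEFs and at most 21.9% elsewhere, and Dnmt3a holds 91.3% of its pair in MEFs, 48.6% in untreated V6.5 cells and 14.3% to 15.8% in iPSCs, NTC and shGldc.

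The second question was whether the iPSCs matched the embryonic stem cells. Of the 10 genes, 2 were at least 2-fold higher in iPSCs than in V6.5 cells without shRNA, against 10.1% of the 12323 kept genes, and 1 was at least 2-fold lower, against 7.44%. The lower gene was Dnmt3a, whose 5.40 FPKM in iPSCs was 4.30-fold (4.03 to 4.58) below the 23.2 FPKM in V6.5 cells, a log2 ratio with rank 173 from the lowest of the kept genes. The 2 higher genes were Dnmt3l, at 210.1 against 57.1 FPKM (3.68-fold, 3.52 to 3.85), and Tet2, at 6.56 against 3.05 FPKM (2.15-fold, 1.96 to 2.36). Tet2 no longer reached 2-fold with a pseudocount of 1. The other 7 members had log2 ratios between -0.48 for Dnmt1 and 0.40 for Dnmt3b, all within the yardstick of 0.59. Tdg lay nearest to equality at 0.04, a sign that reversed to -0.02 when the libraries were scaled to the same FPKM sum. The median of the members was 0.31, against 0.04 over all kept genes.

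The ratio of Dnmt3a to Dnmt3b was 0.167 in iPSCs and 0.947 in untreated V6.5 cells, and 0.188 in NTC and 0.169 in shGldc, which are also V6.5 cells. The untreated V6.5 library therefore stood apart from the other pluripotent libraries in this ratio, although they were of 2 lines and 2 tables. Fibroblast markers summed to 168.7 FPKM in untreated V6.5 cells, 89.8 in iPSCs, 129.7 in NTC and 96.4 in shGldc, and most of each sum was Fn1. The type I collagen genes stood apart in untreated V6.5 cells, where Col1a1 was 20.5 FPKM against 1.68 in iPSCs and 1.24 in NTC, and Col1a2 was 15.3 FPKM against 0.857 and 0.225. Of 8 kept fibroblast markers 4 were at least 2-fold lower in iPSCs than in untreated V6.5 cells, with a median log2 ratio of -2.10, and 3 of the 4 passed the filter only through untreated V6.5 cells. Of 6 kept markers of the formative and primed state, a list that includes Dnmt3b, 3 were at least 2-fold lower in iPSCs and 1 was higher, with a median log2 ratio of -0.53. Of the lower ones 2 passed the filter only through V6.5 cells, and Otx2, one of them, was 0.304 FPKM in iPSCs and 11.5 FPKM in V6.5 cells. Of 8 markers of the naive state, 2 were at least 2-fold higher in iPSCs and none was lower, with a median of 0.84. Primitive endoderm markers summed to 6.88 FPKM in untreated V6.5 cells and 20.6 FPKM in iPSCs. The part of these markers in the values of Dnmt3a, Dnmt3l and Tet2 was not tested.

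**Figure D3:**
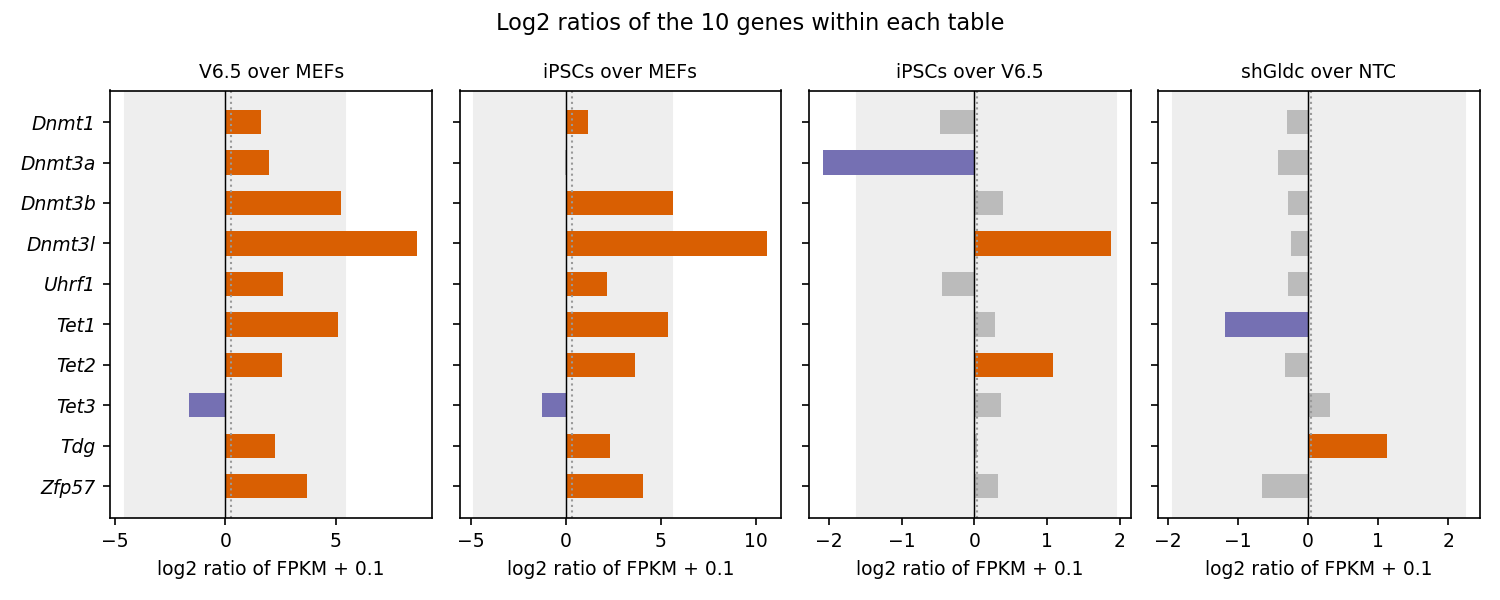
Log2 ratios (FPKM + 0.1) of the 10 genes in the 4 within-table comparisons, 1 library against 1, with bars coloured where the ratio is at least 2-fold in either direction. Grey bands span the central 95% of all kept genes and dotted lines mark their median. Dnmt3l lies outside the band against MEFs in both comparisons and Dnmt3b in iPSCs over MEFs, Dnmt3a lies outside it for iPSCs over V6.5 cells, and no member does for shGldc over NTC.

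The third question was whether depletion of Gldc, an enzyme that feeds one-carbon units to methylation, moved the genes of DNA methylation. Against NTC, 1 member was at least 2-fold higher in shGldc (8.97% of the 11969 kept genes were) and 1 was at least 2-fold lower (7.68% were), so the share of members called was near the background in each direction. The median log2 ratio was -0.29 for the members and 0.04 for all kept genes, and 8 of the 10 members had the lower value in shGldc. Against untreated V6.5 cells, from the other table, the member median had the opposite sign (0.23), and Dnmt3b, Dnmt3l, Uhrf1 and Tet2 were higher in shGldc. Among the methyltransferase genes and Uhrf1, Dnmt1 was 91.7 FPKM in NTC and 74.6 FPKM in shGldc (log2 ratio -0.30), Dnmt3a 12.2 and 9.05 FPKM (-0.43), Dnmt3b 65.0 and 53.7 FPKM (-0.28), Dnmt3l 135.1 and 113.9 FPKM (-0.25), and Uhrf1 193.2 and 157.9 FPKM (-0.29). Each of these ratios over NTC was within the yardstick of 0.59. The list of S phase and division genes was also lower, with a sum of 2388.5 FPKM in NTC and 2020.3 FPKM in shGldc and a median log2 ratio of -0.21, and its part in these values was not tested.

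Tet1 was the member with the largest deficit, at 6.86 FPKM in NTC and 2.96 FPKM in shGldc. It was 2.32-fold lower (2.11 to 2.55) with a log2 ratio of -1.19, rank 728 from the lowest of the kept genes. In untreated V6.5 cells, from the other table, Tet1 was 7.71 FPKM, so both control libraries lay above the knockdown library. With a pseudocount of 1 the log2 ratio no longer reached 2-fold. Tet2 was 5.48 FPKM in NTC and 4.33 FPKM in shGldc (log2 ratio -0.33), and Tet3 was 1.61 and 2.04 FPKM (0.32). The share of Tet1 in the summed Tet FPKM was 49.2% in NTC and 31.7% in shGldc, and that of Tet3 was 11.6% and 21.9%. Zfp57 was 85.2 FPKM in NTC and 54.4 FPKM in shGldc, with a log2 ratio of -0.65, just past the yardstick. At 99.4 FPKM in untreated V6.5 cells it was likewise lower in the knockdown library than in both controls. Primitive endoderm markers were higher in the knockdown, with sums of 4.25 FPKM in NTC and 21.6 FPKM in shGldc, and 7 of 8 pluripotency markers had lower values, with a median log2 ratio of -0.56 and none of them 2-fold apart. Whether cells of another state account for any part of the Tet1 and Zfp57 values was not tested. In bulk RNA a smaller share of cells that express a gene and less RNA per cell cannot be told apart.

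Tdg was the only member at least 2-fold higher in the knockdown than in NTC, at 12.7 FPKM in NTC and 27.8 FPKM in shGldc, a 2.18-fold excess (1.99 to 2.40). Tdg has a processed pseudogene, Gm9855, at chr10:42054113-42055306 on the minus strand of mm10, a single exon of 1194 bases, and Tdg itself lies at chr10:82629828-82650799 on the plus strand. Over those 1194 bases Gm9855 and the transcript Tdg-201 were identical at 1185 (99.2%), and 35.5% of the 50-nt stretches of Tdg occur in other annotated genes. The largest part, 29.4%, is shared with another pseudogene, Tdg-ps, whose expression was not analysed here. The first 120 bases of the pseudogene are printed beside positions 162 to 281 of Tdg-201, which begin at the annotated start codon, to show how little separates them, with the base that differs (A98C, counted from the start of the stretch, Tdg first) in capitals.
Tdg: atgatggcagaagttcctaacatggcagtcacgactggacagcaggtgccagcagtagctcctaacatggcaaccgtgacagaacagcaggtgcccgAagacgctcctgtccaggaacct
Gm9855: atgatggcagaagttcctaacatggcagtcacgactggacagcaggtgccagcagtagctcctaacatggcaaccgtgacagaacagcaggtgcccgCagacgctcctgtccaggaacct

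The value listed for Gm9855 was 0 in MEFs, 4.46 FPKM in iPSCs, 0.919 FPKM in untreated V6.5 cells, 11.4 FPKM in NTC and 0 in shGldc. Without Tdg-ps, the sum of the FPKM of Tdg and Gm9855 was 24.6 in untreated V6.5 cells, 24.1 in NTC and 27.8 in shGldc. The log2 ratio of shGldc over NTC was 1.12 for Tdg alone and 0.20 for the sum. This depended on the scale, since FPKM of genes of unequal length do not add up as reads do. With each FPKM multiplied by transcript length, the log2 ratio of the sum was 0.74 with Tdg at its longest coding transcript (3502 bases) and 0.45 at the mean of its coding transcripts (1775 bases). On all 3 scales it was smaller than for Tdg alone and under 2-fold. Against MEFs, at 4.88 FPKM, the sum was 28.8 FPKM in iPSCs and remained at least 2-fold higher in both pluripotent libraries. How the authors' processing shared reads between the 2 genes is not stated.

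**Figure D4:**
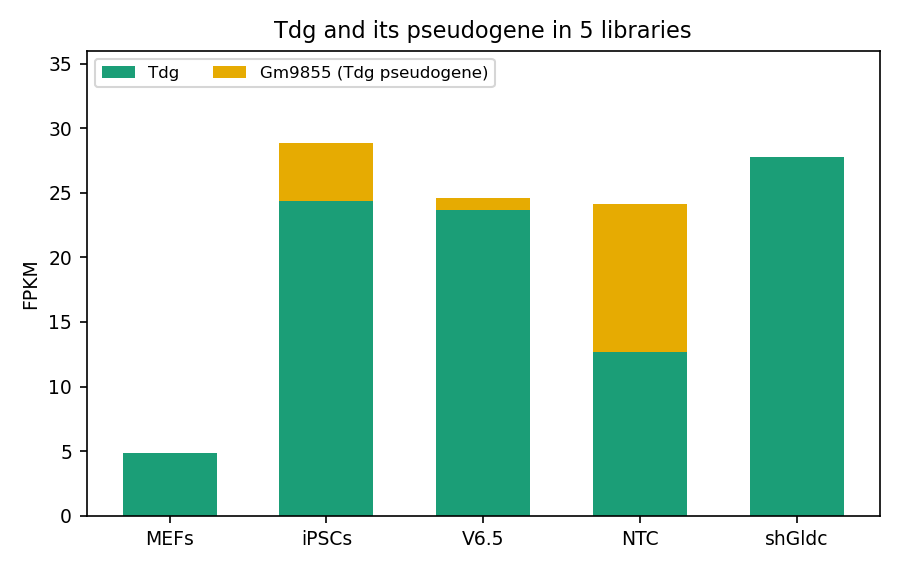
FPKM of Tdg (lower part of each bar) and of its pseudogene Gm9855 (upper part) in the 5 libraries, 1 bar per library. Tdg alone differs 2.18-fold between NTC and shGldc, whereas the stacked heights of untreated V6.5 cells, NTC and shGldc are 24.6, 24.1 and 27.8 FPKM, a sum that is not weighted by length.

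Untreated V6.5 cells offered a further control for the knockdown, with the limit that the tables were made separately. For 6 of the 10 members the log2 difference between the 2 control libraries was larger than that between shGldc and NTC. Dnmt3b and Dnmt3l were the furthest apart, at 24.5 and 57.1 FPKM in untreated V6.5 cells against 65.0 and 135.1 FPKM in NTC (log2 ratios 1.41 and 1.24). Dnmt3a went the other way, from 23.2 FPKM to 12.2 FPKM (-0.92). The knockdown library lay between the 2 controls for 4 members (Dnmt3b, Dnmt3l, Uhrf1 and Tet2), below both for 4 (Dnmt1, Dnmt3a, Tet1 and Zfp57) and above both for Tet3 and Tdg. Against untreated V6.5 cells, Dnmt3a and Tet1 were lower in the knockdown with log2 ratios of -1.35 each, and Dnmt3b and Tet3 were higher with 1.13 and 1.18. Of these, only Tet1 was also at least 2-fold apart from NTC in that direction. Of all 12237 genes kept for shGldc over untreated V6.5 cells, 13.9% were at least 2-fold lower and 9.89% at least 2-fold higher.

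The other genes of the pathway were taken from lists of 64 genes in the tables, written by hand. Of those kept, 31 of 61 were at least 2-fold higher in untreated V6.5 cells than in MEFs and 6 were lower, and 24 of 60 were higher and 4 lower in iPSCs. These are 50.8% and 9.84% in V6.5 cells, beside 30.3% and 23.3% of all kept genes, and 40% and 6.67% in iPSCs, beside 31.5% and 21.3%. Of the called genes, 8 of the 31 higher and 3 of the 6 lower in V6.5 cells, and 7 of the 24 and 2 of the 4 in iPSCs, passed the filter only through the library where they were high. The cofactors of the writers had no lower gene against MEFs, with 11 of 17 higher in V6.5 cells and 8 of 17 in iPSCs. Hells, a remodeller needed for methylation of repeats, was 4.44 FPKM in MEFs, 23.5 in iPSCs and 27.9 in V6.5 cells. Trim28, the corepressor through which ZFP57 acts, was 156.0, 817.9 and 637.7 FPKM. Of 10 genes from families that include readers of methylated CpG, 4 were at least 2-fold lower, 1 was higher and 5 were not 2-fold apart in V6.5 cells. Of those called, 3 of the 4 lower and the 1 higher passed the filter only through the library where they were high. Mbd2 was 37.7 FPKM in MEFs, 14.4 in iPSCs and 8.80 in V6.5 cells, and Zbtb4 was 5.16, 0.662 and 0.561 FPKM. In base excision repair, which completes the removal that Tdg begins, 11 of 19 were higher and 2 lower in V6.5 cells. The uracil glycosylase gene Ung was 4.41 FPKM in MEFs, 53.2 in iPSCs and 66.7 in V6.5 cells.

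Between iPSCs and V6.5 cells, 1 of 59 kept pathway genes was at least 2-fold higher in iPSCs and 10 were lower, which is 1.69% and 16.9% beside 10.1% and 7.44% of all kept genes. Of the lower genes, 1 passed the filter only through V6.5 cells. Among the lower genes were Dppa3 and Prdm14, which restrain UHRF1 and the de novo enzymes respectively. Dppa3 was 14.4 FPKM in iPSCs and 60.6 FPKM in untreated V6.5 cells, and Prdm14 was 6.48 and 16.1 FPKM. In NTC, which are also V6.5 cells, Dppa3 was 11.7 FPKM, below the iPSCs, and Prdm14 was 10.9 FPKM, above them. The lower Dppa3 of iPSCs thus held against untreated V6.5 cells only. Ahcy, which clears the S-adenosylhomocysteine that methyl transfer leaves behind, was 102.9 FPKM in iPSCs and 242.0 FPKM in V6.5 cells. Of 14 kept germline genes that DNA methylation is known to silence in somatic cells, 13 were at least 2-fold higher in iPSCs than in V6.5 cells, with a median log2 ratio of 1.59, beside 10.1% and a median of 0.04 over all kept genes. Of the 13, 3 passed the filter only through the iPSC library. Taf7l, a testis-specific transcription factor subunit, was 32.0 FPKM in iPSCs and 1.31 in V6.5 cells, and Sycp3, a protein of the meiotic chromosome axis, was 19.9 and 3.24 FPKM.

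In the knockdown, 4 of 57 kept pathway genes were at least 2-fold higher than in NTC and 3 were lower, with a median log2 ratio of -0.14. These shares, 7.02% and 5.26%, were no larger than the 8.97% and 7.68% of all kept genes. Of the called genes, 3 of the 4 higher and 2 of the 3 lower were under 1 FPKM in the other library, so they passed the filter only through the library where they were high. Among the higher genes were Zscan4c (0.694 FPKM in NTC and 9.71 FPKM in shGldc), Zscan4d (0.382 and 5.90 FPKM) and Gadd45g (1.04 and 7.61 FPKM). In untreated V6.5 cells they were 4.13, 1.10 and 2.40 FPKM in that order, each between NTC and shGldc. Zscan4 genes form a near-identical family that marks a transient state of embryonic stem cells, so their single values are uncertain. The lower genes were the glycosylase genes Neil3 (2.27 and 0.540 FPKM) and Mutyh (19.0 and 8.44 FPKM) and the deaminase gene Apobec1 (2.54 and 0.613 FPKM). None of the 17 cofactors of the writers and none of 5 kept genes of S-adenosylmethionine supply was 2-fold apart in either direction. Mat2a, the synthetase gene of the methyl donor, was 107.0 FPKM in NTC and 110.9 FPKM in shGldc. Of 9 kept germline genes 3 were at least 2-fold higher in shGldc, of which 2 passed the filter only through that library. The remaining one, Dazl, an RNA-binding protein of germ cells, was 3.66 FPKM in NTC and 15.5 FPKM in shGldc.

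Likeness of pattern was measured over 13656 genes as the largest of the differences in 3 log2 ratios (V6.5 cells over MEFs, iPSCs over MEFs and shGldc over NTC). For Dnmt3b the nearest genes were Ccdc160 (0.14), Alpk3 (0.18) and Pls1 (0.20). Dnmt3l had no close neighbour, its nearest being Rpl10l (0.67), Nodal (0.72) and Esrrb (0.78). For Tet1 they were Slc15a1 (0.16), Vsig2 (0.33) and Slain1 (0.34), and for Tdg alone Deptor (0.04), Fam83g (0.16) and Dmrtc1b (0.19). Ccdc160, Alpk3, Pls1, Rpl10l, Nodal, Slc15a1, Vsig2, Slain1 and Dmrtc1b were at most 0.0537 FPKM in MEFs, below the pseudocount of 0.1. The ratios over MEFs of these genes, and of Dnmt3l itself, depend on that pseudocount, and so does their nearness. These values rest on 5 libraries and describe the numbers only.

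In order of level, Tet3 was the lowest of the 10 in untreated V6.5 cells, iPSCs, NTC and shGldc, and Uhrf1 the highest in untreated V6.5 cells, NTC and shGldc, with Dnmt3l the highest in iPSCs. Uhrf1 was 134.5 FPKM in untreated V6.5 cells, with Zfp57 next at 99.4. In NTC and shGldc Uhrf1 was 193.2 and 157.9 FPKM, with Dnmt3l next at 135.1 and 113.9. In MEFs Dnmt1 and Uhrf1 led at 25.3 and 22.1 FPKM, and Dnmt3l, Tet1, Tet2 and Dnmt3b were the lowest at 0.0375 to 0.545 FPKM. The yardstick is of the same gene between libraries and does not measure gaps between genes, so this order has no check. Across the pluripotent libraries Dnmt3l varied from 57.1 to 210.1 FPKM and Dnmt3a from 5.40 to 23.2 FPKM, whereas Dnmt1 stayed between 56.0 and 91.7 FPKM.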

How the data were processed

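RNA was extracted with TRIzol and sequenced by BGI on an Illumina instrument. Per the methods, reads were mapped to mm10 with TopHat2 2.1.0, transcripts assembled with StringTie 1.3.4d and expression computed with Ballgown. The submitters' processing notes also name SAMtools 1.7 and both mm9 and mm10. The deposited values are FPKM, in 2 tables made separately. The annotation, filters and strand setting are not stated in the sources used here.

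Log2 ratios were taken as differences of log2(FPKM + 0.1) within a table, for genes reaching FPKM 1 in one library or the other, and a gene was counted as higher or lower from 2-fold. With 1 library per group no model was fitted. Alternatives were taken to move a ratio from a change of 0.59 and a count from a change of 1.5 times. The step between low values times transcript length gave an estimate of depth, and the resulting fragment numbers the 95% interval of a fold, with the halved depth for the second table. It covers counting error only. The members, lists and alternatives were chosen with earlier results of these data known. Genes named are all 10 members, up to 3 genes of each pathway list with the highest and the lowest ratios past 2-fold in a comparison, genes that overlap or share sequence with a member, Gldc and the 3 nearest patterns of Dnmt3b, Dnmt3l, Tet1 and Tdg, and Mat2a and the marker genes Fn1, Col1a1, Col1a2 and Otx2 were chosen after their values were seen. Gene positions are from GENCODE in mm10 and start windows from RefSeq in GRCm38.p6, which held all 10 members. Values of 1 gene of the lists, and of Dnmt3c, Gm5648 and Tdg-ps, are not reported here. The scripts were tested on simulated data. Tools were Biopython 1.88, matplotlib 3.10.9, scipy 1.17.1 and pandas 2.3.3 with numpy 2.4.6 under Python 3.11.15.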

Additional observations from a re-analysis of the deposited data

How the results depend on the processing

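The ratios, counts and medians of the members were recomputed with pseudocounts of 1 and 0.01, 3 rescalings, a minimum FPKM of 5 or none, other fold thresholds, and untreated V6.5 cells in place of NTC. Of 302 member ratios 282 moved by less than the yardstick of 0.59 and 20 by more, among them Dnmt3l and Tet1 over MEFs with either pseudocount. A minimum FPKM cannot change a single ratio, and a rescaling shifts all ratios of a comparison by nearly the same small amount. Under these settings no ratio could pass the yardstick, so the 282 do not measure stability. Of the ratios that changed sign, none was past 2-fold in the original setting. With untreated V6.5 cells as control, shGldc was higher for Dnmt3b (-0.28 to 1.13), Dnmt3l (-0.25 to 1.00), Uhrf1 (-0.29 to 0.23) and Tet2 (-0.33 to 0.49), and the member median went from -0.29 to 0.23. Tdg in iPSCs over V6.5 cells went from 0.04 to -0.02 at equal FPKM sums and to -0.00 when centred. Weighting the Tet shares by mean transcript length, for reads in place of a level per length, gave Tet1 49.9% in iPSCs, 61.3% in V6.5 cells, 43.6% in NTC and 26.7% in shGldc. The pathway and marker lists and nearest patterns were not recomputed. Counts of members at the 4-fold threshold were 0 for lower in V6.5 cells over MEFs, 0 for lower in iPSCs over MEFs, 0 for higher in iPSCs over V6.5 cells, and 0 in each direction for shGldc over NTC. With an FPKM of at least 5 the lower counts against MEFs were 0 and 0, and the iPSC median over MEFs was 3.64. With a pseudocount of 1 the lower count of iPSCs over MEFs was 0, their median over MEFs 2.25, the higher count of iPSCs over V6.5 cells 1, and the lower count of shGldc over NTC 0. With a 1.5-fold threshold that last count was 2. With untreated V6.5 cells as control it was 2 and the higher count 2, beside 13.9% lower and 9.89% higher of all kept genes. With Tdg and Gm9855 summed, an alternative chosen after seeing the data, the higher count of shGldc over NTC was 0. Summed as fragments, also chosen after seeing the data, the log2 ratio was 0.45 or 0.74 by the length taken for Tdg. The smaller counts at a stricter threshold or filter follow from its construction, and for the other changes the cause was not tested. No paired analysis was possible because each group had 1 library, and for the same reason no replicate could be left out.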
